A study of Mus musculus with 10 samples.

Results

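The genes described here encode proteins of clathrin-mediated endocytosis that are substrates of the kinase DYRK1A, or paralogues and binding partners of such substrates. They are the dynamins Dnm1, Dnm2 and Dnm3, the BAR domain proteins Amph, Bin1 and Sh3gl2, the synaptojanins Synj1 and Synj2, and the intersectins Itsn1 and Itsn2. The 10 genes were chosen by symbol from the 19938 genes on the array, each with its brightest transcript cluster. A transcript cluster is a set of probes spread along a gene, so its value does not tell splice forms apart. All 10 were found, and each had a single transcript cluster. Tg(Dyrk1a) mice carry an additional copy of Dyrk1a on a bacterial artificial chromosome and were compared with their wild-type littermates. Both groups were males of 16 weeks on a C57BL/6N background as the sample labels give it (the study's methods give C57BL/6J), and both hippocampi, taken whole, of each of 5 mice per genotype gave 1 array. The question was whether the mRNA of these endocytic proteins changes when the kinase is in excess. The arrays measured mRNA, not protein or phosphorylation.

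At a nerve terminal, synaptic vesicle membrane that has fused during release is taken back by endocytosis. Clathrin and its adaptors coat a patch of membrane, BAR domain proteins bend it, dynamin cuts the neck of the bud, and synaptojanin removes phosphates from phosphoinositides so that the coat can come off, while intersectins hold these proteins together through EH and SH3 domains. DYRK1A phosphorylates dynamin 1, amphiphysin 1 and synaptojanin 1 in their proline-rich or central regions and alters their binding to partners with SH3 domains. Itsn1, Synj1 and Dyrk1a all have their human homologues on chromosome 21.

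No difference between Tg(Dyrk1a) and wild-type hippocampi was detected for any of the 10 endocytic genes. With limma and Benjamini-Hochberg adjustment over 23410 annotated transcript clusters, 0 of the 10 passed an adjusted p of 0.05, against 0.00854% of all transcript clusters, and their adjusted p lay between 0.957 and 0.999. Without adjustment, 0 of 10 had a limma p under 0.05, against 4.93% of all transcript clusters, and the smallest unadjusted p was 0.303. By FCROS, the rank method of the study rewritten from its description, 0 of 10 were in the outer ranks, against 4.83% of all transcript clusters. The genotypes overlapped for every one of the 10, whereas 0.807% of all transcript clusters had no overlap. The median log2 fold change of the 10 genes was -0.0010, against 0.0020 over all 19938 genes, with 4 estimates above and 6 below 0, and the median of its size was 0.02 against 0.03 over all genes. Every 95% interval lay within a fold range of 0.907 to 1.12.

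The transgene itself was plain on the same arrays. Dyrk1a (transcript cluster 10437136) was at 11.65, 11.62, 11.67, 11.65 and 11.68 on the log2 scale in Tg(Dyrk1a) replicates 1 to 5, against 11.28, 11.15, 11.14, 11.19 and 11.15 in wild-type replicates 1 to 5. It was 1.38-fold higher in Tg(Dyrk1a), with a 95% interval of 1.31 to 1.46 (limma adjusted p = 0.000138), and the lowest Tg(Dyrk1a) array was above the highest wild-type array. A dimmer Dyrk1a transcript cluster (10437134) gave a smaller difference, 1.11-fold with a 95% interval of 1.04 to 1.19 (limma adjusted p = 0.947), and the mean of both transcript clusters gave a log2 fold change of 0.31 against 0.47 for the brighter one. The 95% intervals of the 10 endocytic genes all ended below that of the brighter Dyrk1a transcript cluster and overlapped that of the dimmer one, as the plot of fold changes shows.

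**Figure D1:**
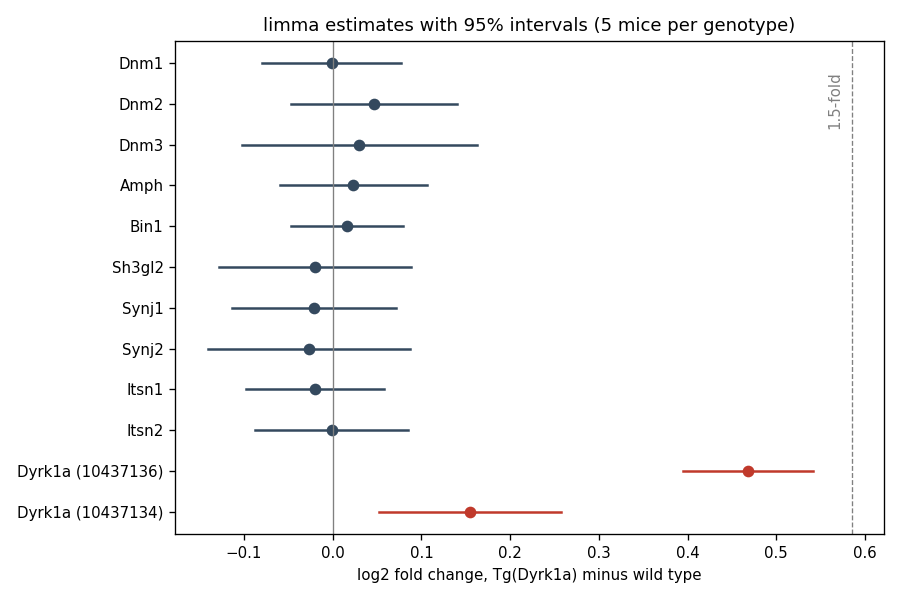
The horizontal axis gives the log2 difference of Tg(Dyrk1a) and wild type for the 10 endocytic genes (dark blue) and both Dyrk1a transcript clusters (red). Points are limma estimates and lines are 95% intervals from 5 mice per genotype; all 10 endocytic intervals include 0, and the dashed line marks a 1.5-fold increase.

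Among the dynamins, the GTPases that cut the vesicle neck, Dnm1 is the form of neurons and the best known DYRK1A substrate of the family. Dnm1 (chromosome 2, 32308471 to 32353349 in GRCm38.p6) was at 12.69, 12.57, 12.71, 12.69 and 12.68 in Tg(Dyrk1a) replicates 1 to 5, against 12.71, 12.69, 12.59, 12.68 and 12.69 in wild-type replicates 1 to 5. In each genotype 4 arrays were within a narrow band and 1 lay well below them, replicate 2 in Tg(Dyrk1a) and replicate 3 in wild type. The log2 fold change was -0.0010 ± 0.036 (SE, n = 5 each), which is 0.999-fold with a 95% interval of 0.947 to 1.06 (limma adjusted p = 0.999; two-sided exact permutation p = 0.929).

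Dnm2, the dynamin of most cell types (chromosome 9, 21424908 to 21507759), had the largest difference of the 10 genes. It was at 9.20, 9.33, 9.19, 9.39 and 9.23 in Tg(Dyrk1a) replicates 1 to 5, against 9.21, 9.28, 9.22, 9.16 and 9.24 in wild-type replicates 1 to 5. Tg(Dyrk1a) replicates 2 and 4 were the highest of all arrays, and the other 3 Tg(Dyrk1a) arrays were within the wild-type range. The log2 fold change was 0.05 ± 0.04 (SE), a fold of 1.03 (95% interval 0.968 to 1.10; limma adjusted p = 0.957; exact permutation p = 0.333). When the 3 arrays richest in choroid plexus markers were left out, which include those same 2 Tg(Dyrk1a) replicates, the log2 fold change of Dnm2 was -0.01. Leaving out its highest Tg(Dyrk1a) arrays lowers the estimate whatever the reason. With the marker levels of choroid plexus, meninges and thalamus as covariates it was instead 0.08 ± 0.05 (SE). The cause was not tested.

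Dnm3, a dynamin of neurons that is also found at postsynaptic sites (chromosome 1, 161982450 to 162478321), varied most between mice. Its values ran from 10.004 to 10.275 in Tg(Dyrk1a) and from 9.954 to 10.236 in wild-type mice, and its pooled SD within genotype was 0.11, against a median of 0.0701 over all transcript clusters. The log2 fold change was 0.03 ± 0.06 (SE), with a 95% interval of -0.10 to 0.16 (limma adjusted p = 0.978).

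**Figure D2:**
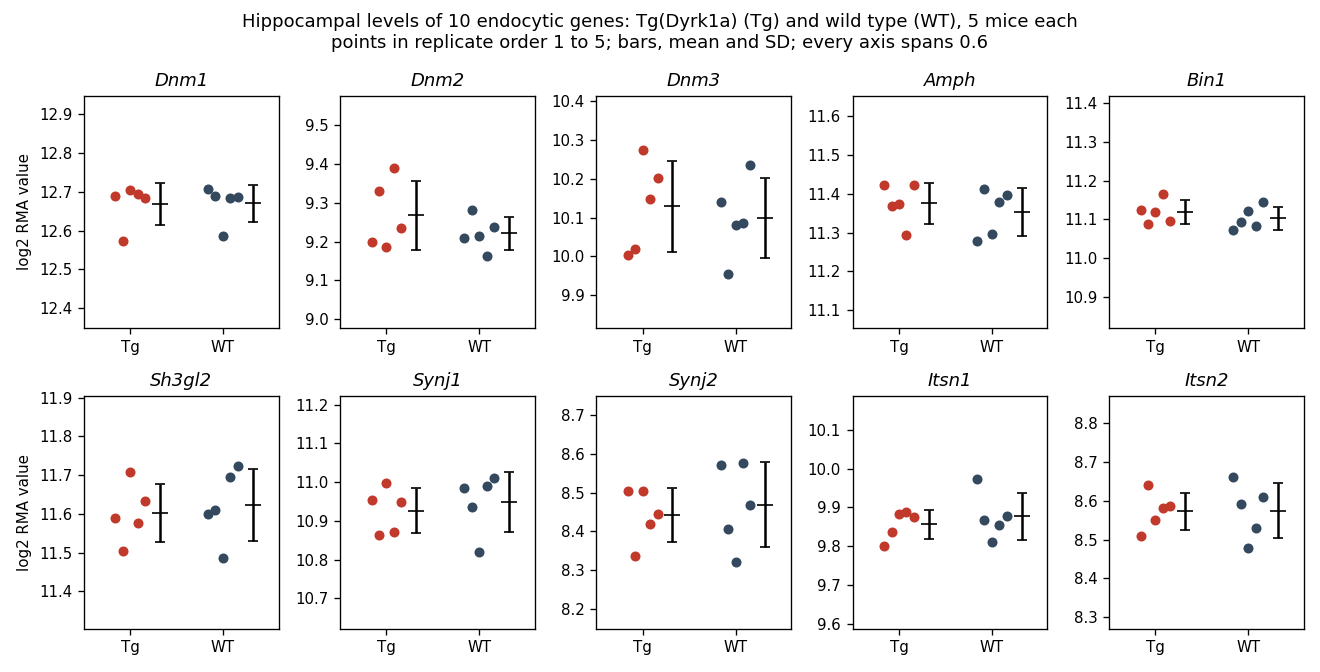
Log2 RMA values (vertical axes, each spanning an equal range) of the 10 endocytic genes in Tg(Dyrk1a) (left in each panel) and wild-type hippocampi, 1 point per mouse in replicate order 1 to 5, the mean and its SD over the 5 mice being drawn as bars. The genotypes overlap in every panel, and Dnm1 has 1 low array in each genotype.

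The BAR domain proteins bend the membrane and recruit dynamin and synaptojanin. Amph encodes amphiphysin 1, which binds dynamin, clathrin and the AP-2 adaptor (chromosome 13, 18948142 to 19154032). Amph was at 11.42, 11.37, 11.37, 11.29 and 11.42 in Tg(Dyrk1a) replicates 1 to 5, against 11.28, 11.41, 11.30, 11.38 and 11.40 in wild-type replicates 1 to 5. Low and high arrays occurred in both genotypes, and the log2 fold change was 0.02 ± 0.04 (SE), 1.02-fold with a 95% interval of 0.959 to 1.08 (limma adjusted p = 0.976; exact permutation p = 0.54).

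Bin1, or amphiphysin 2, is shared by neurons, oligodendrocytes and muscle (chromosome 18, 32376618 to 32435740). It was the steadiest of the 10 genes, from 11.09 to 11.17 in Tg(Dyrk1a) and from 11.07 to 11.14 in wild-type mice, with a pooled SD within genotype of 0.0299. Only 3.1% of all transcript clusters had a smaller one. Its log2 fold change was 0.02 ± 0.03 (SE), with a 95% interval of -0.05 to 0.08 (limma adjusted p = 0.976). Sh3gl2, endophilin A1, brings synaptojanin and dynamin to the bud (chromosome 4, 85205456 to 85389380). Sh3gl2 ran from 11.50 to 11.71 in Tg(Dyrk1a) and from 11.48 to 11.72 in wild-type mice, at a log2 fold change of -0.02 ± 0.05 (SE) and a 95% interval of -0.13 to 0.09 (limma adjusted p = 0.982).

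Synj1 and Itsn1 lie on mouse chromosome 16, on the same side of Dyrk1a, with gaps of 3.56 Mb (Synj1) and 2.65 Mb (Itsn1) between gene bodies. Dyrk1a is the gene that the labels name for this line. Synj1, the phosphoinositide phosphatase of nerve terminals (90936092 to 91013727), was at 10.953, 10.862, 10.998, 10.87 and 10.948 in Tg(Dyrk1a) replicates 1 to 5, against 10.984, 10.936, 10.819, 10.99 and 11.01 in wild-type replicates 1 to 5. Wild-type replicate 3 was the lowest array and wild-type replicate 5 the highest, so the wild-type range held all 5 Tg(Dyrk1a) values. The log2 fold change was -0.02 ± 0.04 (SE), a fold of 0.985 (95% interval 0.924 to 1.05; limma adjusted p = 0.977; exact permutation p = 0.675).

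Itsn1, the scaffold of the endocytic zone (91729310 to 91920591), was at 9.80, 9.84, 9.88, 9.89 and 9.88 in Tg(Dyrk1a) replicates 1 to 5, against 9.97, 9.87, 9.81, 9.85 and 9.88 in wild-type replicates 1 to 5. The highest array was wild-type replicate 1 and the lowest Tg(Dyrk1a) replicate 1, and the rest overlapped. Its log2 fold change was -0.02 ± 0.04 (SE), 0.986-fold with a 95% interval of 0.935 to 1.04 (limma adjusted p = 0.976; exact permutation p = 0.587). For both neighbours the upper limit of the fold was below 1.5, the ratio of 3 gene copies to the usual pair. Dyrk1a, which has the additional copy, itself read less than that on these arrays. It was at 1.38-fold, and at 1.11-fold (95% interval 1.04 to 1.19) by its dimmer transcript cluster. The intervals of both neighbours overlapped that of the dimmer transcript cluster. The copy number of the neighbours was not tested.

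For the paralogues of these genes no difference was detected either. Synj2 (chromosome 17, 5941280 to 6055766) ran from 8.337 to 8.504 in Tg(Dyrk1a) and from 8.32 to 8.575 in wild-type mice, with the lowest estimate of the 10 genes, a log2 fold change of -0.03 ± 0.05 (SE; 95% interval -0.14 to 0.09; limma adjusted p = 0.977). Itsn2 (chromosome 12, 4592643 to 4713952) ran from 8.51 to 8.64 in Tg(Dyrk1a) and from 8.48 to 8.66 in wild-type mice, at -0.0010 ± 0.040 (SE; 95% interval -0.09 to 0.09; limma adjusted p = 0.999).

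The promoters of 9 of the 10 genes are in the RefSeq table of GRCm38.p6, which holds 11 entries for them, each of 300 bases around a start site. Bin1 had no entry. Those of Dnm1, the neuronal dynamin, and of Itsn1 and Synj1, the chromosome 16 neighbours of Dyrk1a, are shown 5′ to 3′ to set the sequence beside the levels given above. Capitals mark the GC box (GGGCGG) and the CCAAT box, each searched on both strands, and overlapping matches were counted. TATAAA and the cyclic AMP response element TGACGTCA were searched too and occur in none of these 3.
Dnm1, chr2:32353280-32353579, minus strand: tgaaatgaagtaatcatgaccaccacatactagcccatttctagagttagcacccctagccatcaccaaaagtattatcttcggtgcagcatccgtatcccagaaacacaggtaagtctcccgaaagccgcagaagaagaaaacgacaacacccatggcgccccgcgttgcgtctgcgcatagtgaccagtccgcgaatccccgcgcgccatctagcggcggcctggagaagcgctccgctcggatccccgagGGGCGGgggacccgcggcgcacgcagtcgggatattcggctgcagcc
Itsn1, chr16:91729121-91729420, plus strand: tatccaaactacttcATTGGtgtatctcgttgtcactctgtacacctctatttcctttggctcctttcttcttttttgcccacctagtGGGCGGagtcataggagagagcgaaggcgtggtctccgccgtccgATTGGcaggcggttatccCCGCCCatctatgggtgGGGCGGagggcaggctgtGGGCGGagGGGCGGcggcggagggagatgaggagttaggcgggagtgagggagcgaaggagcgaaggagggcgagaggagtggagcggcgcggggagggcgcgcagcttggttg
Synj1, chr16:91011046-91011345, minus strand: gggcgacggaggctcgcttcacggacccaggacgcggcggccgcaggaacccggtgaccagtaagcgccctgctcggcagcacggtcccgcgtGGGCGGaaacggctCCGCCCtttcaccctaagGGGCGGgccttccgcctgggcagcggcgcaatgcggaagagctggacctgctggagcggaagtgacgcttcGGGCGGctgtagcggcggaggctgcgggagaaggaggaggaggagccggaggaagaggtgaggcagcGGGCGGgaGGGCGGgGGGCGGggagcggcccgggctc
The Dnm1 window held 1 GC box, the Itsn1 window 5 GC boxes and 2 CCAAT boxes, and this Synj1 window 7 GC boxes. It is the one of the 2 Synj1 entries with more CpG dinucleotides, and the other entry held no GC box. A GC box occurred in 6 of the 11 entries. Of 32851 promoter windows of the same length, 35.7% held a GC box, 37.4% a CCAAT box, 13.6% TATAAA and 1.79% TGACGTCA. Over the 11 entries the number of CpG dinucleotides ran from 6, in both Synj2 entries, to 36, in the Synj1 window shown, and the median over all windows was 7. The Synj2 entries overlap each other, from 5975330 and from 5975336. They lie inside the gene and not at its 5′ end at 5941280. The Synj1 entries, with the window shown, also lie inside their gene, whose 5′ end on the minus strand is at 91013727. Among the 9 genes TGACGTCA occurred once, in the window of Sh3gl2. These matches are descriptions of letters and not measured binding sites.

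From array to array several of the synaptic genes moved together. The mean deviation of the 10 genes from their own averages was between -0.04 and 0.04 in Tg(Dyrk1a) and between -0.07 and 0.04 in wild-type arrays. Wild-type replicate 3 was the lowest, with 9 of 10 genes below their average and 4 genes at their minimum. Over the 10 arrays Sh3gl2 and Synj1 had a Pearson r of 0.907, Synj1 and Synj2 of 0.85, and Dnm1 had 0.777 with Synj2, 0.771 with Synj1 and 0.74 with Sh3gl2. Dnm2 ran the other way, at -0.573 with Synj1 and -0.585 with Synj2. Sh3gl2, Synj1, Synj2 and Dnm1 all had their lowest values in Tg(Dyrk1a) replicate 2 and wild-type replicate 3. How far the correlations among them rest on those arrays was not tested. All these correlations are descriptions over 10 arrays that share a tissue, an array type and a normalization.

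Both arrays in which Dnm1 was low, Tg(Dyrk1a) replicate 2 and wild-type replicate 3, had the highest oligodendrocyte marker scores. The score is the mean over 13 measured markers of an array's log2 value minus the marker's mean over all arrays. It was 0.141 in each of these arrays, against -0.08 to 0.0023 in the other Tg(Dyrk1a) and -0.08 to 0.03 in the other wild-type arrays. Synj2 was also lowest in these arrays. They stood at the edge of other marker lists too. Tg(Dyrk1a) replicate 2 had the highest neuron (0.0594), astrocyte (0.0703) and meningeal (0.238) scores of all arrays, and wild-type replicate 3 had the lowest neuron (-0.0759) and vessel (-0.176) scores. This relation was looked for after the values had been seen, in the same arrays. The adjustment below covers the 10 genes and not the choice of this score among 8 marker lists, so its p-values are descriptive. Over 10 relations tested, 1 for each gene, Dnm1 had a Pearson r of -0.895 with the score (two-sided permutation p = 0.00651, 0.0325 after Benjamini-Hochberg adjustment) and a Spearman rank correlation of -0.685 (permutation p = 0.0363, adjusted 0.299). Without these arrays r was -0.218, so the relation rests on them. Synj2 had r = -0.795 (permutation p = 0.00638, adjusted 0.0325) and a Spearman rank correlation of -0.624 (permutation p = 0.0598, adjusted 0.299), and -0.403 without them. None of the other 8 genes passed after adjustment. In bulk tissue, fewer cells of a type and less RNA per cell cannot be told apart. With the oligodendrocyte score as a covariate the log2 fold change of Dnm1 was 0.0072 ± 0.0284 (SE; limma adjusted p = 0.987), so its difference between genotypes was near 0 with and without the score.

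**Figure D3:**
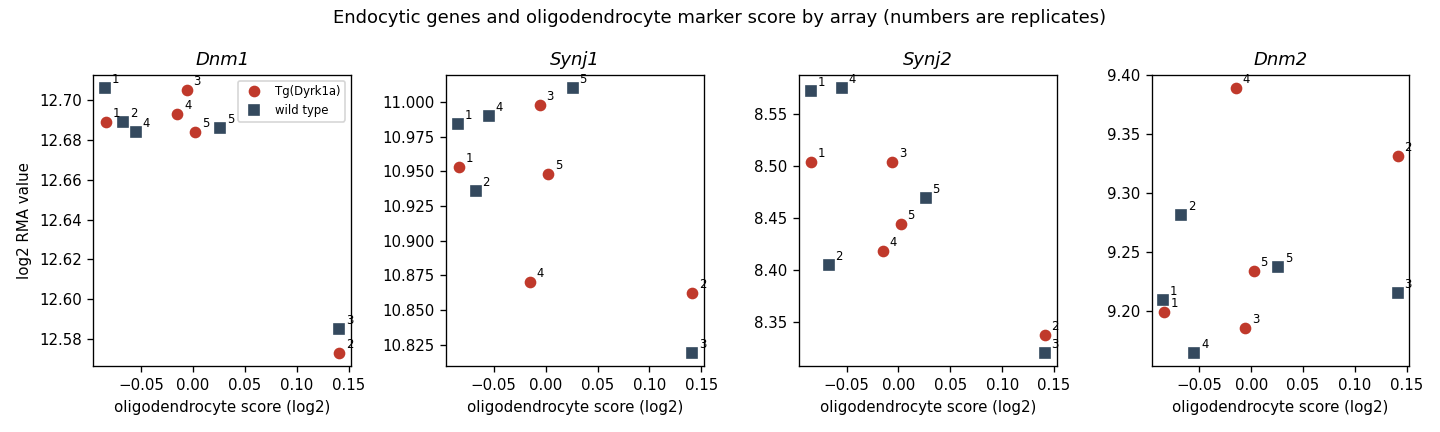
Log2 RMA values of Dnm1, Synj1, Synj2 and Dnm2 (vertical axes, each with its own range) against the oligodendrocyte marker score of the same array (horizontal axis, log2 units), for Tg(Dyrk1a) (red circles) and wild-type mice (dark squares), numbered by replicate. Tg(Dyrk1a) replicate 2 and wild-type replicate 3 share a score of 0.141 and have the lowest Dnm1 and Synj2 values.

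The genes whose values over the 10 arrays were most like those of the DYRK1A substrates were searched for among 9980 genes brighter than the median. For Dnm1 they were Cadm3, Traf4 and Syt3 (Pearson r of 0.941, 0.935 and 0.932). Amph was closest to Stum, Ccbe1 and Rem2 (0.941, 0.925 and 0.923). Synj1 was closest to L1cam, Prag1 and Kit (0.972, 0.968 and 0.968). Outside Tg(Dyrk1a) replicate 2 and wild-type replicate 3, Dnm1 lay within a narrow band, and its likeness without those arrays was not computed. All these r values describe 10 arrays and carry no test.

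Other endocytic genes were read as 6 lists. Of 96 genes for coat, adaptor, membrane-bending, uncoating, signalling and synaptic vesicle proteins, 92 were measured, and 0 passed limma over all transcript clusters, against 0.00854% of all transcript clusters. An unadjusted limma p under 0.05 was found for 2 of them (2.17%), against 5.28% of all genes. By FCROS 1 (1.09%) was called, Dyrk1b, against 4.83% of all transcript clusters. Their median log2 fold change was 0.0033. Clathrin chains and AP-2 subunits were the tightest group, with 8 genes between -0.02 and 0.03 and a median of 0.02, and Ap2m1 and Ap2a2, both subunits of AP-2, at 0.03 and 0.03 had the smallest p. Adaptors and early coat factors had a median of 0.0064 over 17 genes, with Ston1, a stonin, at 0.07 ± 0.04 (SE) and Necap2, which binds AP-2, at 0.06 ± 0.04 (SE).

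Other SH3 and BAR proteins had a median log2 fold change of 0.0015 over 18 genes, where the endophilin B gene Sh3glb2 was at 0.06 ± 0.03 (SE) and Trip10, an F-BAR protein, at -0.06 ± 0.04 (SE). Uncoating and phosphoinositide enzymes had a median of -0.00072 over 13 genes. In that group Pip5k1b and Pip5k1a, kinases that make the lipid which synaptojanin removes, were at 0.09 ± 0.04 (SE; unadjusted limma p = 0.0492, adjusted 0.947; exact permutation p = 0.0714) and 0.06 ± 0.04 (SE). Synaptic vesicle proteins had a median of -0.0046 over 19 genes, with Syngr3 at 0.07 ± 0.04 (SE) and Sypl at 0.08 ± 0.04 (SE).

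The list of kinases and phosphatases also holds regulators of such enzymes and relatives of Dyrk1a, and not every gene on it is known to act on endocytic proteins. Its 17 genes had a median log2 fold change of 0.0096. On this list Dyrk1b, the closest paralogue of Dyrk1a, stood furthest from 0. It averaged 9.53 ± 0.08 (SD, n = 5) in Tg(Dyrk1a) and 9.72 ± 0.07 (SD, n = 5) in wild-type mice. Its log2 fold change was -0.19 ± 0.05 (SE). The genotypes did not overlap for Dyrk1b, alone among the 92 list genes (1.09%, against 0.807% of all transcript clusters). Its p was the smallest the exact permutation test can give here (0.00794) and FCROS called it lower, but the limma adjusted p was 0.947. Bmp2k, a kinase related to the AP-2 kinase AAK1, was at 0.07 ± 0.05 (SE).

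**Figure D4:**
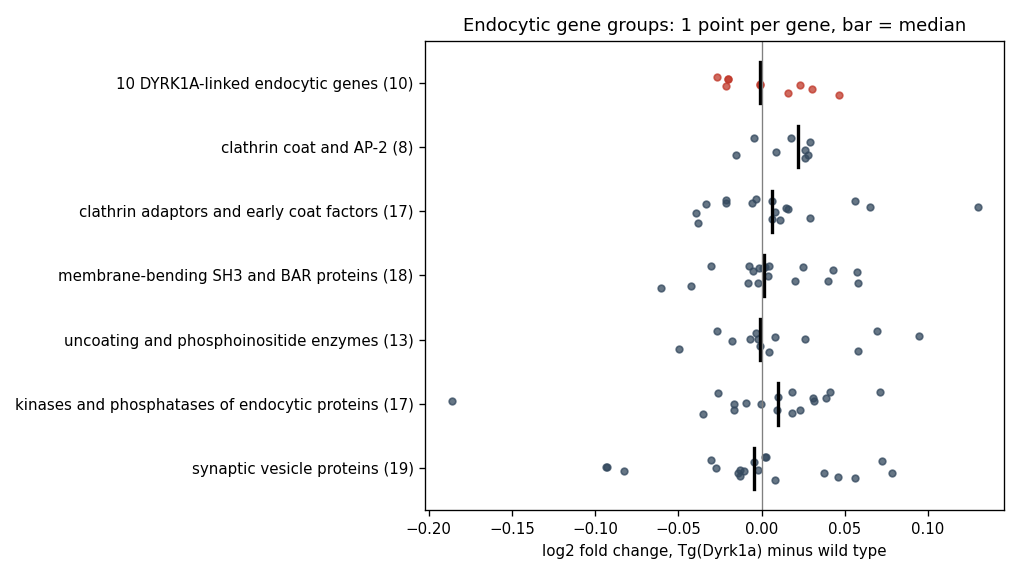
The horizontal axis gives the log2 difference of Tg(Dyrk1a) and wild type for the 10 DYRK1A-linked endocytic genes (red) and for 6 lists of related genes (dark blue, number measured in brackets); 1 point per gene from 5 mice per genotype, with a bar at the median of each group. All group medians lie between -0.0046 and 0.02, and the point furthest from 0, at -0.19, is Dyrk1b.

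Across the arrays the medians lay between 6.58 and 6.66, and any pair of arrays correlated at 0.996 to 0.999. Markers of hippocampal neurons were present, with Camk2a between 13.18 and 13.26 in Tg(Dyrk1a) and between 13.20 and 13.26 in wild-type arrays. The neuron score over 14 markers ran from -0.015 to 0.0594 in Tg(Dyrk1a) and from -0.0759 to 0.0242 in wild-type arrays. Of these 14 markers 10 had estimates above 0 and 4 below, at a median log2 fold change of 0.035. None of them passed the adjusted threshold. Markers of neighbouring tissue varied. The choroid plexus score over 11 markers ran from -0.785 to 1.22 in Tg(Dyrk1a) and from -0.575 to 1.24 in wild-type arrays, and exceeded 0.5 in Tg(Dyrk1a) replicates 2 and 4 and wild-type replicate 5. Vessel scores over 12 markers ran from -0.00042 to 0.107 in Tg(Dyrk1a) and from -0.176 to 0.0121 in wild-type arrays, and meningeal scores over 12 markers from -0.0728 to 0.238 in Tg(Dyrk1a) and from -0.216 to 0.0434 in wild-type arrays. Of each of these 2 lists 5 of 12 genes had higher values in Tg(Dyrk1a) at an unadjusted limma p under 0.05, against 4.93% of all transcript clusters in either direction. The part of the neuron and vessel markers in the endocytic estimates was not tested. The choroid plexus score entered 2 refits, and the meningeal score only the second of them. When the 3 arrays richest in choroid plexus markers were left out, the log2 fold changes of the 10 genes ran from -0.02 to 0.10. With the scores of choroid plexus, meninges and thalamus in the model they ran from -0.06 to 0.08. In either refit 0 of the 10 passed the threshold. With the 3 scores no transcript cluster passed at all, Dyrk1a included, so the count there cannot set the 10 genes apart.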

How the data were processed

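Hippocampal RNA was turned into labelled single-stranded cDNA and read on an Affymetrix Mouse Gene 1.0 ST array, 5 Tg(Dyrk1a) and 5 wild-type mice with 1 array each. The authors deposited log2 values made by robust multi-array average (RMA), which subtracts background, brings the arrays to a common distribution and summarises the probes of a transcript cluster. RMA compresses fold changes, most of all for dim transcripts. Which arrays were normalized together is not given in the sources used here. The submitters' processing notes name RMA, limma and mm10.

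The value table had 35556 rows. The platform annotation named a gene for 23410, of which 21789 had 1 symbol and 1621 several (tested, not named). Symbols and positions came from RefSeq GRCm38.p6, through gene identifiers for 21698 rows. A gene's brightest transcript cluster over the 10 arrays stood for it.

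The comparison of genotypes used limma 3.58.1 (lmFit and eBayes without covariates, R 4.3.3), with Benjamini-Hochberg adjustment over the 23410 transcript clusters. A positive log2 fold change means higher in Tg(Dyrk1a). Single genes also had a two-sided exact permutation test over all 252 assignments of the arrays. The number of arrays limits the precision. FCROS ranked all pairs of arrays with 25% trimmed at each end, and f-values in the lowest or highest 0.025 were counted. Correlations with the oligodendrocyte score used 100000 permutations. The scripts were tested on simulated data.

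Named genes are the 10 members, Dyrk1a, the 2 genes with the smallest p on each of 6 pathway lists, and the 3 genes most like Dnm1, Amph and Synj1. The members and lists were chosen with earlier results of these data known, and 1 further list is not reported here. The alternatives were other normalization, centring, filters, variance models, array weights, a block for the replicate number, other summaries per gene, marker scores as covariates, and leaving out arrays.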

Additional observations from a re-analysis of the deposited data

Results flagged for a closer look

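In a group of 5 arrays, the gap of the most distant array to its neighbour was divided by the range of the group for 23 genes in both genotypes, and shares above 0.71 were taken up. Chance gives about 1 in 20 such groups, and 3 of 46 were found. Dnm1 was at 12.57 in Tg(Dyrk1a) replicate 2, where the other 4 arrays lay between 12.68 and 12.71, a gap of 0.837 of the range. In wild-type replicate 3 Dnm1 was at 12.59, where the others again lay between 12.68 and 12.71, a gap of 0.812 of the range. Necap2, a clathrin adaptor partner, was at 9.30 in wild-type replicate 1 and between 9.43 and 9.47 in the other wild-type arrays, a gap of 0.747 of the range.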

How the results depend on the processing

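In all 21 limma refits 0 of the 10 endocytic genes passed, with 0 at an unadjusted limma p under 0.05. The smallest adjusted p was 0.787, and the 10 log2 fold changes stayed between -0.06 and 0.10. Of 210 values, 186 kept their sign and 24 turned, at most to 0.0457. When the 3 arrays richest in choroid plexus markers were left out, Dnm1 was at 0.0268, Dnm2 at -0.0111, Sh3gl2 at 0.0457, Synj1 at 0.0338 and Synj2 at 0.0158. Array weights gave Dnm1 at 0.0037 and Itsn2 at 0.00026. With 3 scores (choroid plexus, meninges, thalamus) as covariates Dnm1 was at 0.0278, and with the oligodendrocyte score at 0.0072. With 1 array left out, Dnm1 ran from -0.0222 to 0.0229, Dnm3 from -0.00648 to 0.0644, Itsn1 from -0.0366 to 0.00443, Itsn2 from -0.0249 to 0.0208 and Sh3gl2 from -0.0547 to 0.00492. Of the 12 wider genes only Ap2a2 turned, at -0.0026 with the 3 scores. The cause was not tested.

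Dyrk1a kept its call except with the 3 scores as covariates, at 0.45 ± 0.06 (SE; limma adjusted p = 0.383, in a range over all alternatives of 4.03e-06 to 0.383). Over all annotated transcript clusters 2 passed in the main comparison, 1 with all rows tested, 1 with a variance trend, 5 with array weights, 1 without the 3 arrays, 0 with the 3 scores (853 at an unadjusted p under 0.05) and 1131 by FCROS, which sets no error rate over mice. With 1 array left out the number was 1 or 2. With the replicate number as a block (replicate block) 1 passed and no endocytic gene changed its call. Same-numbered arrays correlated at -0.285 to 0.276 in their deviations from the genotype means. Tg(Dyrk1a) replicate 1 was most like the wild-type array of its own number (0.276), and the others were most like another number. These correlations cannot exclude a pairing by litter or batch.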
